A study of Mus musculus with 4 samples.

Results

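The clustered histone genes described here are the protein-coding mouse genes whose symbols begin with Hist1h, Hist2h, Hist3h or Hist4h in GENCODE mouse release 21. By that rule 67 of the 53379 gene identifiers in the count table were members. The rule uses names only, but it was chosen with earlier results of these data known. They comprised 6 genes of the linker histone H1, 18 of H2A, 18 of H2B, 12 of H3 and 13 of H4, and 54 of the 67 lay in the Hist1 cluster on chromosome 13.

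The libraries came from macrophages of MC38 tumours, a transplanted mouse colon carcinoma, in C57BL/6J mice, taken 21 days after implantation. Mice on a high-fat diet gave 2 libraries (HFD1 and HFD2) and mice on a control diet gave 2 (CD1 and CD2), each from 1 named mouse. Cells had been gated on CD45, CD11b and F4/80 together, and polyA RNA was sequenced after stranded library preparation. Mouse ages, diet compositions and the length of feeding were not stated in the labels.

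Replication-dependent histone genes are transcribed mainly in S phase and supply the proteins that package newly copied DNA. Their mRNAs normally end just past a short 3′ stem-loop, which the stem-loop binding protein Slbp recognises, and carry no polyA tail. Some of the genes also yield polyadenylated mRNA from sites further downstream, a form described in differentiating cells, and selection for polyA recovers that form far better than the stem-loop-ended one. The values below are therefore levels in polyA-selected RNA and not total histone mRNA.

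The 16-base stem-loop, a 6-base stem on each side of a 4-base loop, was searched for in the annotated 3′ UTRs. Histone mRNA normally ends just past it, whereas the polyadenylated form ends further downstream. A perfectly paired stem-loop was found in 46 of the 67 members, starting at base 22 to 59 after the stop codon. The letters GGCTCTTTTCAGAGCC occurred in 26 members and in no H4 gene, and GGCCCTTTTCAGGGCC occurred in 7, all of them H4 genes. A further 6 members carried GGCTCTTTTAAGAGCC. For the members with the clearest values, the sites read as follows in the mRNA sense on GRCm38, with the stem-loop in capitals.
Hist1h1c (chr13:23739507-23739532, plus strand): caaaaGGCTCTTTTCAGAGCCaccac
Hist1h1d (chr13:23555782-23555807, plus strand): caaacGGCTCTTTTCAGAGCCaccca
Hist1h1e (chr13:23621777-23621802, minus strand): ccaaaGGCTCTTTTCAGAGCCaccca
Hist1h2bg (chr13:23571838-23571863, plus strand): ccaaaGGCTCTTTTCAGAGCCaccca
Hist4h4 (chr6:136803993-136804018, minus strand): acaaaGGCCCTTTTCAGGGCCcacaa
Hist1h4i (chr13:22040961-22040986, minus strand): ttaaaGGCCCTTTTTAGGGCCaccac
The 3 linker histone genes and Hist1h2bg shared the same 16 bases, while Hist4h4 and Hist1h4i carried other letters that also pair. No such stem-loop was found in the annotated transcript of Hist1h2bc. The 3′ UTR length was kept for 1 annotated transcript a gene. In 14 members that transcript holds no 3′ UTR base at all, so a missing match there says nothing about the gene. In Hist1h2af and Hist1h2ah it holds 1 and 2 bases, too few for a match.

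Counts of the members were low for most genes and dominated by 1. Of the 67, 50 passed the filter on low counts and were tested among 18422 genes, 6 had counts but were not tested, and 11 were at 0 counts in all 4 libraries. A count of 0 allows up to 3 counts, or 0.0801 and 0.0782 CPM (counts per 1e6 of TMM-scaled library size) in HFD1 and HFD2 and 0.0925 and 0.0807 CPM in CD1 and CD2. Of those 11 genes, 9 had under 12% of their 50-base transcript windows unique to them (median of the 11, 2.68%), against a median of 55.0% among the tested members. The copies Hist2h2aa1 and Hist2h2aa2 were among them, and their level could not be told from a loss of reads that match several genes. The other two, Hist1h2ba and Hist1h2aa, encode testis histones and were at 0 with 61.8 and 76.2% of their windows unique.

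Summed over all 67 members, the histone counts stood higher in both HFD libraries than in both CD libraries. The sums were 205 and 306 CPM in HFD1 and HFD2, against 110.2 and 115 CPM in CD1 and CD2. As a share of all counts, they made up 0.0208% (Wilson 95% interval 0.0203 to 0.0212) of HFD1 and 0.0316% (0.0310 to 0.0322) of HFD2, against 0.0105% (0.0101 to 0.0108) of CD1 and 0.0115% (0.0112 to 0.0119) of CD2. These intervals cover counting error only. The mean share was 2.38 times as high in HFD libraries as in CD libraries. Without Hist1h1c, the ratio was 1.75. Hist1h1c alone gave 46.2% (45.1 to 47.4) and 51.5% (50.6 to 52.4) of the histone counts of HFD1 and HFD2, and 36.1% (34.6 to 37.7) and 26.9% (25.6 to 28.3) of those of CD1 and CD2. In bulk RNA such as this, fewer cells of a type and less RNA per cell cannot be told apart.

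The families were unequal in this. H1 summed to 119 and 188 CPM in HFD libraries against 51.9 and 45.2 CPM in CD libraries, a ratio of shares of 3.33. Hist1h1c alone gave 94.7 and 158 CPM of these in HFD libraries and 39.8 and 31.0 CPM in CD libraries, a ratio of 3.76. The H1 sum is thus mostly that of 1 gene. H2B summed to 44.8 and 59.6 CPM against 20.5 and 28.8 CPM, a ratio of 2.21. For H2A, H3 and H4 the ratios were 1.31, 1.20 and 1.41, and the H3 sum of HFD1, 11.2 CPM, lay below both CD sums of 11.5 and 12.9 CPM. These sums are descriptions without a test.

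**Figure D1:**
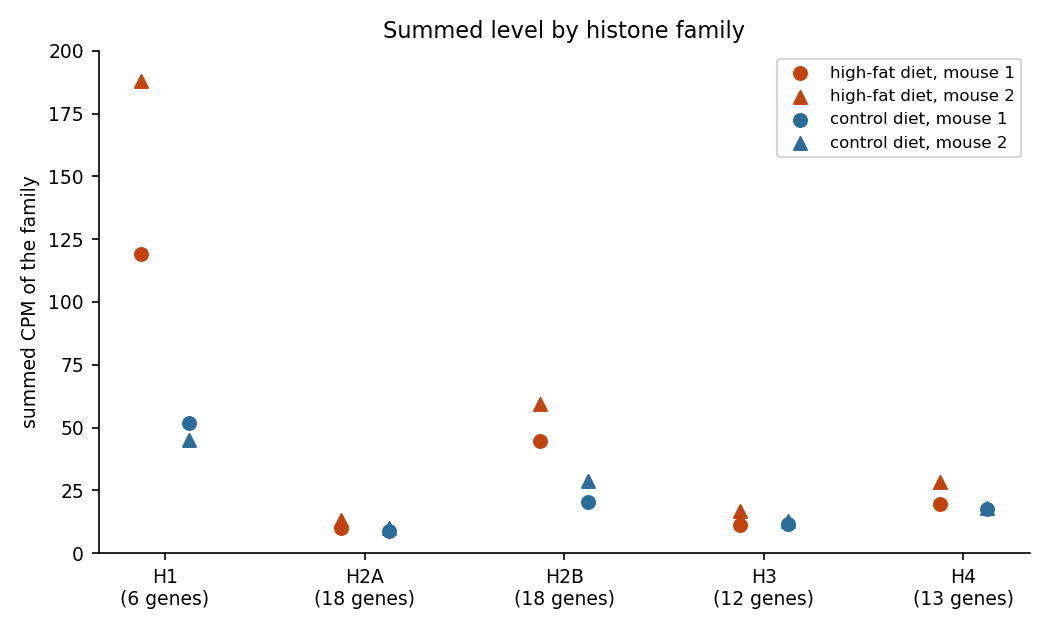
Summed CPM of the members of each histone family in each library, with high-fat-diet libraries left of control-diet libraries. H1 stands at 119 and 188 CPM in HFD libraries against 51.9 and 45.2 CPM in CD libraries, while the H2A and H3 libraries of the 2 diets lie close together. Hist1h1c alone gives 94.7 and 158 CPM of the H1 sums in HFD libraries and 39.8 and 31.0 CPM in CD libraries.

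Across the tested members, edgeR's quasi-likelihood test at an adjusted p below 0.05 called 4 of 50 (8%) higher in HFD libraries, against a background of 2.61% of all tested genes, and 1 of 50 (2%) lower, against 7.91%. The other 45 passed in neither direction. At an unadjusted p below 0.05 there were 12 of 50 higher (against 13.6% of all tested genes) and 1 lower (against 17.7%), and DESeq2 called 7 higher, adding Hist1h1b, Hist1h2bg and Hist1h4i, and 1 lower, where it called 5.87% and 10.9% of all tested genes. Calls depended on single libraries: 2 members were called higher without HFD1, 1 without HFD2 and 8 without CD2, and none was called lower without either HFD library. The same settings moved the higher calls over all genes to 71, 117 and 1934, the last being 10.1% of the genes tested without CD2, where 13.2% were lower. The log2 fold change was positive for 41 of the 50 and ranged from -2.65 to 2.03, with a median of 0.73 beside 0.00 over all tested genes. Both HFD libraries lay above both CD libraries in 28 of the 50 members (56%), a pattern found in 32.2% of all tested genes, and both lay below in 4 (8%: Hist4h4, Hist1h3e, Hist1h3f and Hist1h4a), against 31.6%.

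**Figure D2:**
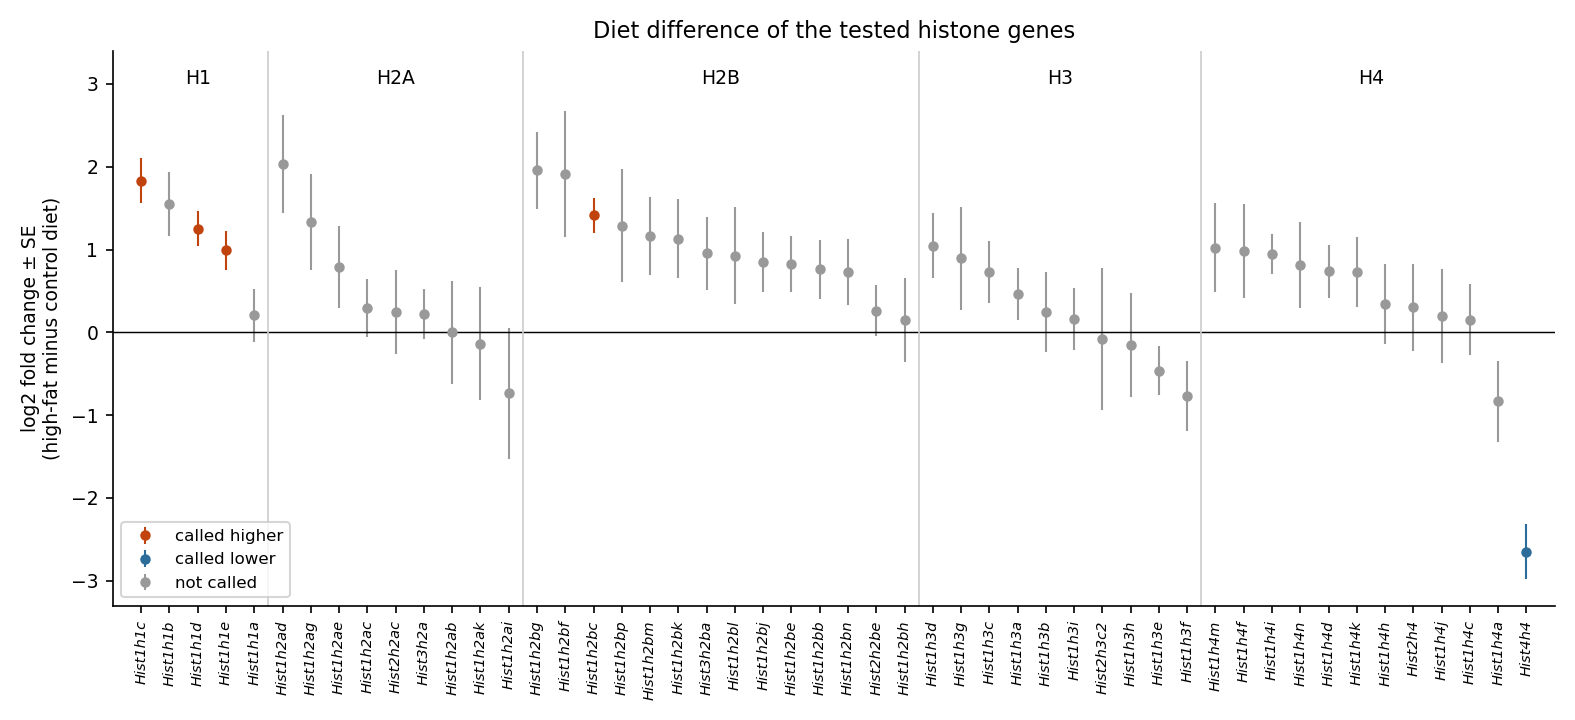
Log2 fold change (HFD minus CD) with its standard error for each of the 50 tested members, grouped by family, with the called genes marked. All 14 H2B genes lie above 0, and Hist4h4 lies far below at -2.65.

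Linker histones, which bind the DNA entering and leaving the nucleosome and compact the fibre, held 3 of the 4 higher calls. Hist1h1c (RefSeq name H1f2; chr13:23738808-23740367, plus strand), a somatic H1, had 94.7 and 158 CPM in HFD1 and HFD2, against 39.8 and 31.0 CPM in CD1 and CD2. The diets did not overlap, and HFD2 stood well above HFD1. The means were 126 ± 44.5 CPM in HFD libraries and 35.4 ± 6.24 CPM in CD libraries (SD, n = 2 each). The log2 fold change was 1.83 (SE 0.28, edgeR adjusted p = 0.0203), a 3.56-fold difference. Hist1h1c was called in every alternative fit that was run, and its log2 fold change lay between 1.44 and 2.17 when single libraries were left out.

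Hist1h1d (RefSeq name H1f3; chr13:23553262-23560686, plus strand) had 8.65 and 9.25 CPM in HFD libraries, against 3.85 and 3.66 CPM in CD libraries. Both mice of each diet were close together. The log2 fold change was 1.25 (SE 0.22, edgeR adjusted p = 0.0265), and the call was lost without HFD1 (adjusted p = 0.129) and without HFD2 (0.133). It was also lost with GC and length offsets, where the log2 fold change was 1.01 and the edgeR adjusted p 0.0557. Hist1h1e (RefSeq name H1f4; chr13:23620629-23622558, minus strand) had 10.4 and 13.4 CPM in HFD libraries, against 5.39 and 6.61 CPM in CD libraries. Its log2 fold change was 0.99 (SE 0.23, edgeR adjusted p = 0.0484), just past the threshold, and it was lost without HFD1, HFD2 or CD1 (adjusted p = 0.14, 0.246 and 0.0665). Of its 50-base windows, 23.8% are shared with Hist1h2be, whose annotated transcript overlaps it.

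Hist1h1b (RefSeq name H1f5), a further somatic H1 gene, had 3.58 and 5.16 CPM in HFD libraries, against 1.05 and 1.91 CPM in CD libraries, with no overlap. Its log2 fold change of 1.56 (SE 0.39) did not pass in edgeR (adjusted p = 0.0545), but DESeq2 gave an adjusted p of 0.00897. With single libraries left out, the log2 fold change ranged from 1.20 to 2.06 and the edgeR adjusted p from 0.0066 without CD2 to 0.231 without HFD2. Hist1h1a had 1.87 and 2.48 CPM in HFD libraries and 1.70 and 2.07 CPM in CD libraries, where the diets overlapped (log2 fold change 0.20, edgeR adjusted p = 0.693). It falls outside the rule for named genes and is given to complete the family. The testis gene Hist1h1t had 4 counts in all.

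Levels between H1 genes were compared per kilobase of annotated exons. Hist1h1c reached 60.7 and 101 RPKM (CPM per kilobase) in HFD1 and HFD2, against 25.5 and 19.9 RPKM in CD1 and CD2. H1f0, the replacement H1 whose mRNA is polyadenylated and which accumulates in non-dividing cells, had 71.0 and 93.2 RPKM in HFD libraries and 51.3 and 56.1 RPKM in CD libraries. The level of Hist1h1c was thus below that of H1f0 in both CD libraries and in HFD1 and above it in HFD2. The remaining somatic H1 genes stayed between 0.492 and 6.95 RPKM in every library, with Hist1h1d the lowest on its 7425-base gene model.

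The promoters of the called H1 genes are shown because H1 promoters are known for a shared AAACACA element, the H1 box. The genes were picked for being called higher, so their common direction was set by that choice. Promoters of 250 bases before to 50 after the start came from RefSeq on GRCm38.p6, and 62 of the 67 members had one. Capitals mark, on either strand, the H1 box AAACACA, the CCAAT box, the TATA box TATAAA and the octamer ATTTGCAT.
Hist1h1c promoter (chr13:23738557-23738856, plus strand): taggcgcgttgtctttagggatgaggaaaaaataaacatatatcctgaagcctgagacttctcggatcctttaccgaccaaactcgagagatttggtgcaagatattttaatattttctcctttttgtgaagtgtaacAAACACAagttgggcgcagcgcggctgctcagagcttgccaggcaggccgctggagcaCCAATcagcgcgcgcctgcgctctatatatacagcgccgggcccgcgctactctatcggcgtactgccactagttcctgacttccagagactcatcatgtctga
Hist1h1e promoter (chr13:23622509-23622808, minus strand): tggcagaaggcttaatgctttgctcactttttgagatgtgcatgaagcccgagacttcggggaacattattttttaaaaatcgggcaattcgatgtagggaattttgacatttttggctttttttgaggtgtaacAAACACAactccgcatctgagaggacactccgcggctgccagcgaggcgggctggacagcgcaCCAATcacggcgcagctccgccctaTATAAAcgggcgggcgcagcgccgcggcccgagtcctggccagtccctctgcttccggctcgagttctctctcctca
Hist1h1d promoter (chr13:23554782-23555081, plus strand): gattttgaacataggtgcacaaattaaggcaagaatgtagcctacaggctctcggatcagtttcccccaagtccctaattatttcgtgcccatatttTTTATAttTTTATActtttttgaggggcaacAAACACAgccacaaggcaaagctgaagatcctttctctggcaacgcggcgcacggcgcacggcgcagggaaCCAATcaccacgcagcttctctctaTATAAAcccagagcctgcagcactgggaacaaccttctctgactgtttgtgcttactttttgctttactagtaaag
The H1 box was present in 5 of the 6 H1 promoters, in 9 of the 62 members and in 7.18% of all 32851 promoters in the table. It began at base 139 of 300 in Hist1h1c, 136 in Hist1h1e and 129 in Hist1h1d, in each case ahead of a CCAAT box at base 197, 199 and 200. The Hist1h1c window held no TATAAA. Hist1h1b also held AAACACA, from base 134. A match of letters is a description and does not show that a factor binds there.

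H2B genes, which pair with H2A in the nucleosome core, leaned in the same direction as H1 but with 1 call. All 14 tested H2B members had a positive log2 fold change (median 0.94). In 12 of them (85.7%) both HFD libraries lay above both CD libraries, against 32.2% of all tested genes. These genes are not separate measures, as all come from the same mice and several share sequence. HFD2 lay above HFD1 in all 14, and Hist1h2bl and Hist1h2bn had 17.2 and 13.6% of their windows unique to them. Hist1h2bc (chr13:23684199-23692908, plus strand) had 20.2 and 27.6 CPM in HFD libraries, against 8.51 and 9.46 CPM in CD libraries. The means were 23.9 ± 5.22 CPM in HFD libraries and 8.99 ± 0.675 CPM in CD libraries (SD, n = 2 each). Its log2 fold change was 1.41 (SE 0.21, edgeR adjusted p = 0.0202), and without HFD2 it was 1.19 with an edgeR adjusted p of 0.085.

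Hist1h2bg had 5.39 and 7.04 CPM in HFD libraries, against 0.863 and 2.31 CPM in CD libraries. CD1 stood lowest and the diets did not overlap. The log2 fold change was 1.96 (SE 0.47, edgeR adjusted p = 0.0507), short of the threshold, while DESeq2 gave an adjusted p of 0.00134. With the mouse number as a block its edgeR adjusted p was 0.00897. The log2 fold change was 2.84 without CD2 (edgeR adjusted p = 0.0011) and 1.43 without CD1 (0.0256), whereas the call was also missed without HFD1 (2.16, 0.151) and without HFD2 (1.78, 0.182). Hist1h2bg shares 45.0% of its windows with Hist1h2bc, so reads may have been divided between them.

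Hist1h2bj had 2.38 and 4.12 CPM in HFD libraries, against 1.94 and 1.67 CPM in CD libraries, and did not pass (log2 fold change 0.85, edgeR adjusted p = 0.167). Hist2h2be, on chromosome 3 with every window unique to it, had 6.49 and 6.65 CPM in HFD libraries and 4.01 and 6.94 CPM in CD libraries. Its diets overlapped (log2 fold change 0.26, edgeR adjusted p = 0.597), and without CD1 the log2 fold change was -0.07. The other 10 tested H2B genes had at most 2.89 CPM in any library.

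**Figure D3:**
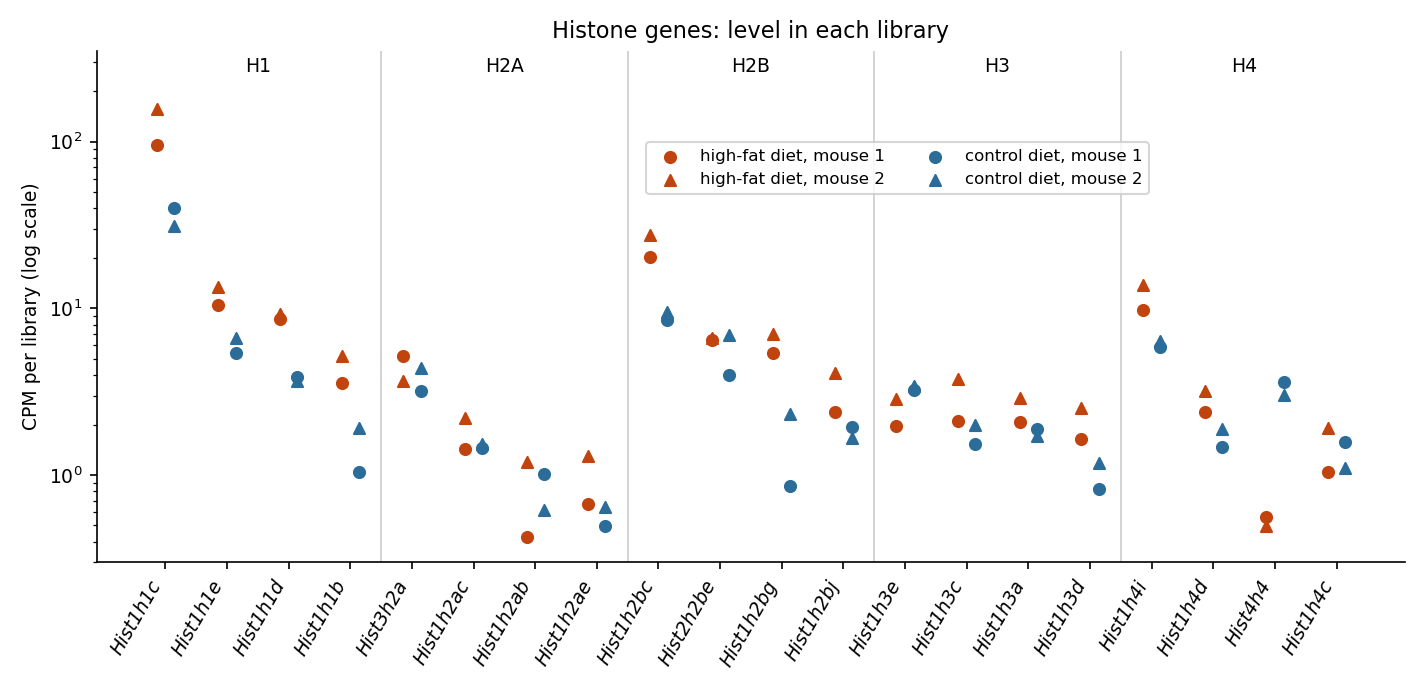
CPM on a log scale of the named histone genes in each library, with high-fat-diet libraries left of control-diet libraries. Hist1h1c stands above all other members in every library, and Hist4h4 is the gene whose HFD libraries, at 0.561 and 0.495 CPM, lie farthest below its CD libraries.

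No H2A gene was called by edgeR or DESeq2, and the 9 tested members had a median log2 fold change of 0.25. The 1 gene at an unadjusted p below 0.05 was Hist1h2ad, picked for that p, where 13.6% of all tested genes were higher. It had 0.401 and 0.443 CPM in HFD libraries against 0.0925 and 0.108 CPM in CD libraries. Its log2 fold change of 2.03 was the highest of all tested members (edgeR adjusted p = 0.0765). That value rested on 15 and 17 counts in HFD libraries and 3 and 4 in CD libraries, near the bound for a count of 0. Hist1h2ad shares 59.5% of its windows with Hist1h2ah. Hist3h2a, the most counted H2A gene, had 5.18 and 3.65 CPM in HFD libraries and 3.21 and 4.38 CPM in CD libraries, so the diets overlapped (log2 fold change 0.22, edgeR adjusted p = 0.659). It shares 31.5% of its windows with Trim17. Hist1h2ac had 1.44 and 2.22 CPM in HFD libraries and 1.45 and 1.53 CPM in CD libraries (log2 fold change 0.29, edgeR adjusted p = 0.604). Hist1h2ab and Hist1h2ae, at most 1.30 CPM in any library, had log2 fold changes of -0.00057 and 0.78 (edgeR adjusted p = 1.0 and 0.322).

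H2A and H2B genes often lie head to head across a short shared promoter, and 12 such divergent pairs, 175 to 305 bases apart, were found among the members. Both genes were tested in 7 of them. The H2B gene had the larger log2 fold change in 5 of the 7, with medians of 0.93 for the H2B and 0.29 for the H2A genes. The pair of Hist1h2ac and Hist1h2bc, 250 bases apart, differed most in counts, with 243 and 2446 counts over the 4 libraries. Its interval is shown because the H2B gene was called and its neighbour was not, a difference that was not itself tested. The octamer ATTTGCAT, a known element of H2B promoters, begins at base 121 there on the opposite strand.
Hist1h2ac promoter (chr13:23683910-23684209, minus strand): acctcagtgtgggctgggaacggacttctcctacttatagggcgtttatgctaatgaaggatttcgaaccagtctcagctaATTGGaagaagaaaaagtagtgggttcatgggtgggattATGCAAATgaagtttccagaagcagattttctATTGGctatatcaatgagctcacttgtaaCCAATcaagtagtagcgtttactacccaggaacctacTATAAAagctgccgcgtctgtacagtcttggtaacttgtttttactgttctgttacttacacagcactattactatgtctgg
The octamer was present in 6 of 16 H2B promoters, 7 of 18 H2A promoters and 1.74% of all promoters in the table. Hist1h2be had a further promoter entry (chr13:23585921-23586220, minus strand) that held the octamer and is not in that count. CCAAT was present in 53 of the 62 members and in 37.4% of all promoters, and TATAAA in 35 of the 62 and in 13.6%.

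H3 genes, whose protein forms the core tetramer with H4, also gave no call by edgeR or DESeq2. Of the 10 tested, 1 was higher at an unadjusted p below 0.05, against 13.6% of all tested genes. That gene was Hist1h3d, with 1.66 and 2.53 CPM in HFD libraries against 0.832 and 1.18 CPM in CD libraries (log2 fold change 1.05, edgeR adjusted p = 0.13). Hist1h3c had 2.11 and 3.75 CPM in HFD libraries against 1.54 and 1.99 CPM in CD libraries (log2 fold change 0.73, edgeR adjusted p = 0.238). Hist1h3a had a log2 fold change of 0.47 (edgeR adjusted p = 0.349). In the other direction, Hist1h3e had 1.98 and 2.87 CPM in HFD libraries against 3.24 and 3.44 CPM in CD libraries (log2 fold change -0.46, edgeR adjusted p = 0.331). Hist1h3e shares 63.2% of its windows with Hist1h3f, whose HFD libraries also lay below both CD libraries.

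Among the H4 genes, Hist4h4 was the member that fell. Hist4h4 (chr6:136801553-136804415, minus strand), a lone H4 gene outside the large clusters, had 0.561 and 0.495 CPM in HFD libraries, against 3.64 and 3.01 CPM in CD libraries. The diets were far apart and the mice of each diet close. The means were 0.528 ± 0.0464 CPM in HFD libraries and 3.32 ± 0.443 CPM in CD libraries (SD, n = 2 each). The log2 fold change was -2.65 (SE 0.33, edgeR adjusted p = 0.0139), a level 6.26-fold lower in HFD libraries. It rested on 21 and 19 counts in HFD libraries and 118 and 112 counts in CD libraries. The call was lost without HFD1 (-2.72, adjusted p = 0.0557) and without HFD2 (-2.54, 0.0645), while the size barely moved.

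Hist1h4i (chr13:22040636-22041362, minus strand) was the most counted H4 gene. It had 9.77 and 13.8 CPM in HFD libraries against 5.89 and 6.34 CPM in CD libraries, with no overlap, and its log2 fold change of 0.95 (SE 0.24) did not pass (edgeR adjusted p = 0.0578). Hist1h4d had 2.40 and 3.21 CPM in HFD libraries against 1.48 and 1.88 CPM in CD libraries (log2 fold change 0.74, edgeR adjusted p = 0.174). Hist1h4c overlapped between diets (log2 fold change 0.16, edgeR adjusted p = 0.835) and had a negative log2 fold change, -0.34, without HFD2. The 12 tested H4 genes had a median log2 fold change of 0.53.

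The members were next ordered by how far their annotated transcripts run past the stem-loop. In 23 the transcript ends within 100 bases of it, in 23 it runs from 108 to 4884 bases further, and in 21 no stem-loop was found. The 23 long transcripts had a median of 230.0 counts over the 4 libraries and included Hist1h1c, with 12035, whereas the 23 short ones had a median of 93 and none above 372. Per length the medians were close, 1.16 RPKM for the long and 1.28 RPKM for the short transcripts. Among the long ones 21 were tested, with a median log2 fold change of 0.30. Of these, 3 were called higher (14.3%, against 2.61% of all tested genes) and 1 lower (4.76%, against 7.91%). Among the short ones 18 were tested and none was called by edgeR or DESeq2, with a median of 0.87. At an unadjusted p below 0.05 stood 3 of them, Hist1h2ad, Hist1h2bf and Hist1h2bm, picked for that p and all higher in HFD libraries. Over all tested genes, 13.6% were higher at that p. Hist1h2bf rested on 13 and 16 counts in HFD libraries and 1 and 6 in CD libraries. Hist1h2bc was the 1 call among the 11 tested genes without a stem-loop in the annotated transcript (9.09%, against 2.61%). The median there was 0.26. No test was made of these differences between groups of genes.

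**Figure D4:**
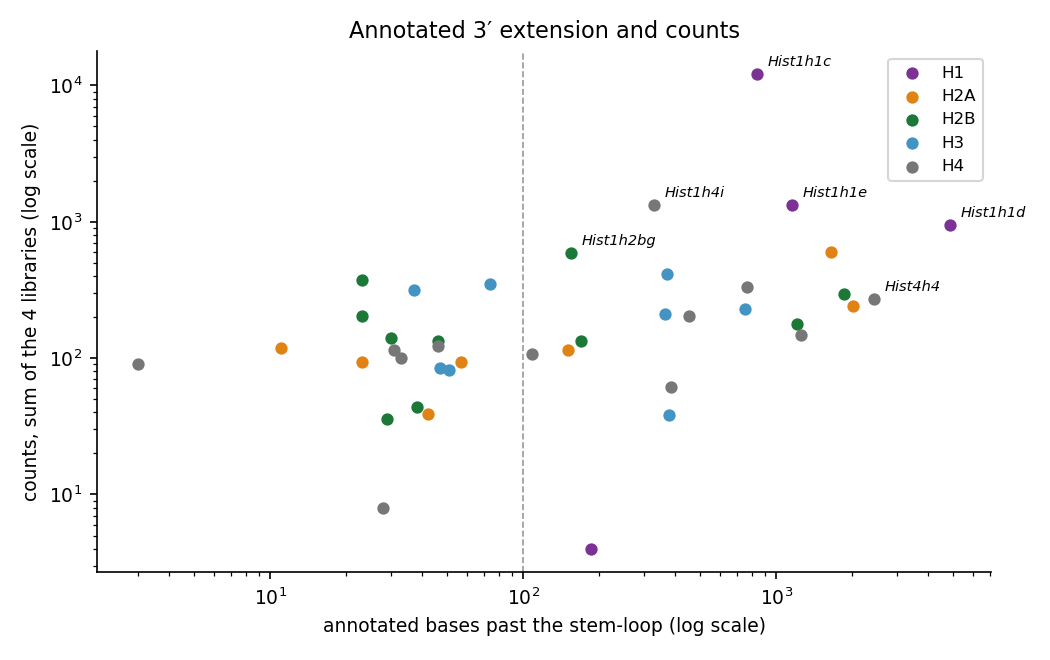
Counts summed over the 4 libraries against the annotated bases past the stem-loop, both on log scales, for members with a stem-loop and counts. The dashed line marks 100 bases, and no gene left of it exceeds 372 counts, while Hist1h1c reaches 12035.

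The mice of a diet also differed in their histone levels. HFD2 lay above HFD1 in 46 of the 50 tested members (92%), with a median log2 ratio of CPM of 0.53, where 47.6% of all tested genes did so. The S-phase genes ran the other way, with HFD2 above HFD1 in 7 of 28 and a median log2 ratio of -0.18, and the G2/M genes in 2 of 15 with a median of -0.09. Between the control mice, CD2 lay above CD1 in 37 of 50 members (74%), 27 of 28 S-phase genes and 15 of 15 G2/M genes, against 50.6% of all tested genes. The median log2 ratios of CD2 to CD1 were 0.40, 0.41 and 0.64. With 2 mice a diet, these are values of single mice.

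**Figure D5:**
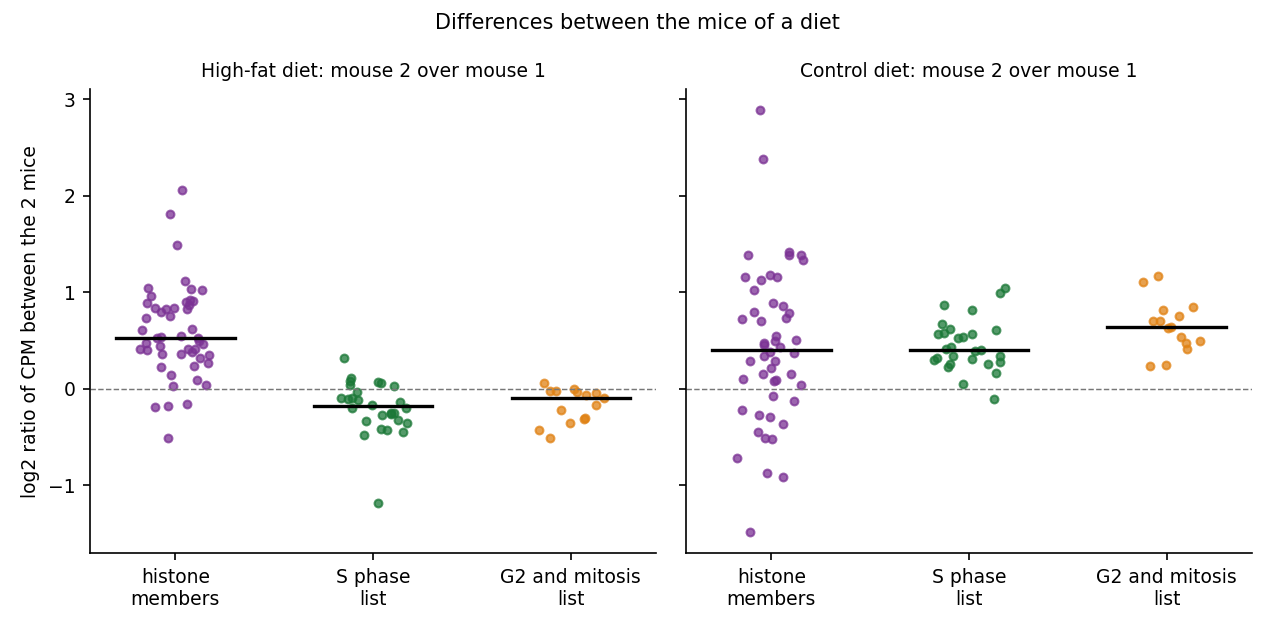
Log2 ratio of CPM between the mice of each diet (mouse 2 over mouse 1) for the histone members, the S-phase genes and the G2/M genes, with 1 point a gene and the median as a line. In the high-fat-diet pair the histone median is 0.53 and the S-phase median -0.18, while in the control-diet pair all 3 medians lie between 0.40 and 0.64.

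Genes of DNA synthesis, which run in the same phase as histone supply, rose in 2 of 28 cases (7.14%, against 2.61% of all tested genes) and fell in none (against 7.91%), with a median log2 fold change of 0.40. Tk1, thymidine kinase, had 75.7 ± 1.49 CPM in HFD libraries and 47.7 ± 1.20 CPM in CD libraries (SD, n = 2 each, log2 fold change 0.66, edgeR adjusted p = 0.036). Rrm2, a ribonucleotide reductase subunit, and Ccna2, cyclin A2, had log2 fold changes of 0.71 and 1.05 and did not pass (edgeR adjusted p = 0.0685 and 0.0802). The list held no call without HFD1 or without HFD2, 1 without CD1 and 12 without CD2 (where 10.1% of all genes were higher), and none with the mouse number as a block. Of 15 G2/M genes, which drive mitosis, 6 rose (40%, against 2.61% of all tested genes) and none fell, all 15 had both HFD libraries above both CD libraries (against 32.2%), and the median log2 fold change was 0.83. They included Ccnb1, cyclin B1 (1.72, edgeR adjusted p = 0.0292), its kinase Cdk1 (0.82, 0.0301), Ube2c (1.11, 0.0302) and Birc5 (0.91, 0.0381). The G2/M list held no call without HFD1, 1 without HFD2 and 15 without CD2, settings in which 71, 117 and 1934 of all genes were called higher.

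Genes whose proteins make or handle histone mRNA mostly did not pass the test. Of 17 genes of histone mRNA processing and decay, which include Slbp and the U7 snRNP proteins, 1 fell (5.88%, against 7.91% of all tested genes), none rose, and the median log2 fold change was 0.04. Tut7, a terminal uridylyltransferase, had 112 ± 4.55 CPM in HFD libraries and 183 ± 5.75 CPM in CD libraries (SD, n = 2 each, log2 fold change -0.70, edgeR adjusted p = 0.035). That call was lost without either HFD library and with the mouse number as a block (edgeR adjusted p = 0.0524). The log2 fold change of Tut7 lay between -0.74 and -0.64 with single libraries left out. The next by p, Sympk, Zfp473 and Cstf2, had log2 fold changes of -0.48, -1.02 and 0.36 and did not pass (edgeR adjusted p = 0.0823, 0.099 and 0.158). Of 13 genes of general cleavage and polyadenylation, 2 fell (15.4%, against 7.91% of all tested genes) and none rose: Pcf11, a termination factor (-1.22, edgeR adjusted p = 0.0132), and Clp1 of the same cleavage complex (-0.89, 0.0289). Pcf11 was lost without HFD2 (adjusted p = 0.0597) and Clp1 without HFD1 (0.129) or HFD2 (0.16). Cpsf6 and Wdr33 had log2 fold changes of 0.46 and -0.39 (edgeR adjusted p = 0.122 and 0.125).

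None of 17 histone chaperones was called by edgeR, with 4 higher and 2 lower at an unadjusted p below 0.05 and 2 higher and 1 lower by DESeq2. Over all tested genes, 13.6% were higher and 17.7% lower at that unadjusted p. The smallest adjusted p-values belonged to Ubn1, Hjurp, Asf1a and Asf1b (edgeR, 0.0679, 0.078, 0.0887 and 0.0977), with log2 fold changes of -0.51, 0.56, 0.73 and 0.78. With single libraries left out, the log2 fold changes of these genes ranged from -0.55 to -0.46, 0.42 to 0.73, 0.54 to 0.96 and 0.46 to 1.20, in the same order. The replacement variants were 11 histone genes outside the naming of the members, listed as expressed outside S phase as well. Of these, only Cenpa, the centromeric H3, passed (9.09% higher, against 2.61% of all tested genes). It had 80.1 ± 1.97 CPM in HFD libraries and 47.2 ± 9.47 CPM in CD libraries (SD, n = 2 each, log2 fold change 0.76, edgeR adjusted p = 0.0475). The call of Cenpa was lost without HFD1, HFD2 or CD1. Its log2 fold change lay between 0.58 and 0.98 with single libraries left out. H1f0, H2afv and H2afz had log2 fold changes of 0.61, 0.83 and -0.45 and did not pass (edgeR adjusted p = 0.0801, 0.0815 and 0.104).

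Markers of other cell types moved with the diets as well, and their part in the histone results was not tested. None of 8 macrophage markers was called by edgeR or DESeq2, Mertk, picked for it, had an unadjusted p below 0.05, and Ptprc, Itgam and Adgre1, the genes of the gate, had edgeR adjusted p-values of 0.323, 0.96 and 0.823. Macrophage markers, led by C1qa, summed to 7135 and 7289 CPM in HFD libraries and 5793 and 7308 CPM in CD libraries. Of 7 fibroblast and pericyte markers 5 rose, with sums of 2040.4 and 2023 CPM in HFD libraries against 1024 and 773 CPM in CD libraries, led by Col3a1. Of 7 markers of epithelial carcinoma cells 6 fell, with sums of 39.8 and 46.2 CPM against 157 and 113 CPM. Cdh1, the most abundant of them, was the 1 not called, and Cldn4 was at 0 in HFD1. Of 8 neutrophil markers 6 were tested and 4 fell, with sums of 85.7 and 87.0 CPM against 219 and 112 CPM, led by Csf3r, and Ly6g was at 0 in both HFD libraries. T and NK markers (1 of 8 higher, and 1, the most abundant Gzma, lower) summed to 21.4 and 18.8 CPM against 65.8 and 17.4 CPM. B cell markers (1 of 3 tested lower, led by Cd79b) summed to 15.1 and 17.0 CPM against 11.0 and 18.3 CPM. Erythroid and platelet markers (1 of 6 tested higher, 2 lower, led by Hbb-bs) summed to 31.2 and 4.61 CPM against 15.1 and 15.2 CPM.

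RNA that normally has no polyA tail was also present in the polyA libraries. Rn7sk, the 7SK RNA, had 26.1 and 28.6 CPM in HFD libraries, against 95.3 and 94.9 CPM in CD libraries. The snoRNA genes summed to 48.1 and 52.3 CPM in HFD libraries against 62.1 and 74.0 CPM in CD libraries, and the snRNA genes to 24.2 and 18.8 CPM against 27.0 and 46.4 CPM. These classes were lower in HFD libraries, where the histone sum was higher. The rRNA genes summed to 11188 and 12433 CPM in HFD libraries and 12399 and 11731 CPM in CD libraries, with overlap. Whether these carried-over RNAs bear on the histone values was not tested.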

How the data were processed

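The authors deposited raw counts, whole reads per gene and library, in 1 table for 53379 versioned Ensembl identifiers, and every value column belonged to 1 of the 4 libraries. The builds GRCm38 and mm10 and the tools DESeq2 1.24.0, BWA 0.7.12, FastQC 0.11.5 and cutadapt 1.15 are named in the submitters' processing notes. Not given in the sources used here are the counting program, its strand setting, its annotation release and its treatment of reads that match several genes. Histone copies are near-identical, so that treatment can change single-gene values. Total counts were 34148682 to 37159552 a library.

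Identifiers were matched to GENCODE mouse release 21 (53274 matched without version, 50604 with it, all members among them). Diet was the single factor in edgeR 4.0.16 (R 4.3.3), with filterByExpr (minimum count 10, minimum total 15), TMM, robust glmQLFit and a two-sided glmQLFTest. Benjamini-Hochberg adjustment ran over 18422 genes, with calls at an adjusted p below 0.05. The SE is the log2 fold change divided by the root of its F statistic. The procedure was also run on simulated data, with an outcome that is not given here. Each diet had 2 libraries named as single mice. PCR duplicates could not be told from separate molecules.

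Alternatives were RLE scaling, DESeq2 1.42.0, no filter, the mouse number as a block, GC and length offsets, and leaving out each library. Named were the called members, the 4 most counted members of each family, up to 4 genes of smallest p in each context list, and the gate's genes with the most abundant gene of each marker list. The members and lists were chosen with earlier results of these data known. Windows of 50 bases of all annotated transcripts gave the share unique to a gene. Proteins were not used here. A further gene of the S-phase list that the naming rule selected is not reported here.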

Additional observations from a re-analysis of the deposited data

How the results depend on the processing

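Named histone genes kept direction and side of the threshold in 185 of their comparisons with an alternative fit, gained a call in 16, lost one in 11 and reversed in 8. The reversals of log2 fold change were Hist1h2ab (0.042 without the low-count filter, 0.57 without HFD1, 0.40 without CD1), Hist1h2ac (-0.027 without HFD2), Hist1h4c (-0.34 without HFD2, -0.079 without CD2), Hist2h2be (-0.074 without CD1) and Hist3h2a (-0.039 without HFD1). None of them was called, and the cause was not tested. With single libraries left out, these genes ranged from -0.91 to 0.57, -0.027 to 0.59, -0.34 to 0.55, -0.074 to 0.71 and -0.039 to 0.47, in the same order. Named genes of the context lists kept both in 211, gained in 28 and lost in 25.

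Members called higher numbered 7 by DESeq2 and 7 without the filter, and 1 to 8 with single libraries left out, where 0 or 1 was lower and the median log2 fold change lay between 0.40 and 0.99. All genes called higher numbered 1082 by DESeq2 and 1552 without the filter, with 2231 lower without the filter, and 71 to 1934 higher and 300 to 2534 lower with single libraries left out. Calls higher by DESeq2 and without the filter were 3 and 3 for replacement variants, 2 and 3 for chaperones, 5 and 6 for S phase, and 11 and 11 for G2/M. DESeq2 called 2 genes of histone mRNA processing and 1 chaperone lower. With GC and length offsets 1 chaperone was higher and 1 lower, and RLE scaling left 1 S-phase gene higher. Calls over all genes with the offsets or RLE scaling are not given here. With single libraries left out, the ranges were 0 to 2 higher and 0 to 1 lower for replacement variants, 0 to 1 and 0 to 2 for histone mRNA processing and also for polyadenylation, 0 to 5 and 0 to 2 for chaperones, 0 to 12 and 0 to 0 for S phase, and 0 to 15 and 0 to 0 for G2/M. Ratios of histone shares were 3.33 for H1, 1.31 for H2A, 1.20 for H3, 1.41 for H4, 3.76 for Hist1h1c and 1.75 without it, beside 2.38 overall.

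Mouse numbers were shared between the diets only as numbers: same-numbered mice deviated with r = -0.20 over 10214 genes. With the replicate block, 6 members were called higher, 0 genes of histone mRNA processing lower and 0 S-phase genes higher. Block and offsets together gave 2 replacement variants and 1 S-phase gene higher. Calls over all genes in these fits are not given here, so the counts lack a background share. Crossed numbers as a block, chosen after seeing the data, gave 909 genes higher, 3 members higher, 2 replacement variants higher and 1 lower, 1 chaperone higher, 6 S-phase genes higher and 12 G2/M genes higher.

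With 2 mice a diet, the spread rests on 2 values a group, and most members had under 3 CPM. A difference that was not called is not shown to be absent, and what kept each one from the threshold was not tested.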
